A study of Mus musculus with 6 samples.

Results

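The genes of adipocyte lipid storage, lipogenesis and brown fat heat production were examined in RNA-seq libraries of the mouse cochlea, the coiled organ of hearing. The set held 38 named genes of the 48709 mouse genes in the count table, and each was found by its symbol. It comprised 24 lipid storage genes, 7 lipogenesis genes and 7 brown fat genes. The tissue came from 3 mice homozygous for an engineered Hgf allele, with the genotype label Hgfdel10Neo/del10Neo (knock-in), and from 3 mice labelled Hgf+/+ (wild-type), which the study's design text calls littermates. The allele lacks 10 bp of intron 5 of Hgf and names a Neo selection cassette, and the strain models DFNB39, an inherited human hearing loss of recessive type caused by HGF variants. All mice were untreated as far as the labels go and were between 5 and 27 weeks old. For single mice, neither age nor sex nor litter is given in the sources used here.

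White adipocytes store fatty acids as triglyceride in a lipid droplet coated with perilipins, and release them through a chain of lipases. Their identity is set by the transcription factors PPARγ and C/EBPα, and they secrete hormones such as adiponectin and leptin. Brown adipocytes hold many small droplets and burn their fat for heat through the mitochondrial uncoupling protein UCP1. Fat cells are not among the sensory or supporting cells of the cochlea, but adipose tissue can lie in the marrow and soft tissue around the bone that encloses it.

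The libraries held 24005234 to 34437746 gene counts in the knock-in group and 24144106 to 42312291 in the wild-type group. Levels are given as CPM, counts scaled to a common library total with TMM factors. Hgf was at 9.24, 10.4 and 10.5 CPM in knock-in libraries 1, 2 and 3, against 15.4, 16.3 and 15.2 CPM in wild-type libraries 1, 2 and 3. All knock-in libraries thus lay below all wild-type libraries, although the log2 fold change of -0.63 had an adjusted p of 0.246 in edgeR's quasi-likelihood test. The Neo sequence had 71, 199 and 5 counts in the knock-in libraries, against 5, 8 and 10 counts in wild-type libraries. The library labelled knock-in replicate 3 thus resembled wild-type libraries in Neo and lay below them in Hgf. Its genotype label is therefore uncertain, and so is every knock-in mean and fold change that includes it. The Xist RNA was abundant in that library (17489 counts) and in wild-type replicate 2 (25380 counts), and was at 10 to 30 counts in the others. Ddx3y, a gene of the Y chromosome, had 26 counts in knock-in replicate 3 and 1 in wild-type replicate 2, against 1963 to 3722 in the others. By these transcripts, knock-in replicate 3 was the only knock-in library of female pattern, and wild-type replicate 2 the only wild-type one. All 14 cochlear marker genes examined were detected, with a summed level of 3527, 4086 and 3930 CPM in knock-in libraries and 3338, 3803 and 3583 CPM in wild-type libraries. Coch, a protein of the cochlear extracellular matrix, led these markers in all libraries.

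Transcripts of fat storage and heat production had higher mean levels in knock-in cochleae, and no single gene of the set passed the test. Of the 38 genes, 37 had enough counts to be tested, and 36 of these had a positive log2 fold change (knock-in over wild-type), where 50.2% of all 20733 tested genes did. Their median log2 fold change was 0.82, against 0.00 over all tested genes. A log2 fold change of 1 or more was found for 18 of the 37, and for 0.622% of all tested genes. That count was 4 without the library labelled knock-in replicate 3, and 2 with wild-type replicate 1 left out as well. None of the 37 reached an adjusted p of 0.05 in edgeR's quasi-likelihood test with Benjamini-Hochberg adjustment over all genes, where 0.0338% of all tested genes did. With no filter on low counts, the same test called 10 of the set, with adjusted p-values from 0.00262 upward, and 76 genes in all. With the filter, the adjusted p of the tested members lay between 0.966 and 0.998. At an unadjusted p under 0.05 in that test, 27 of the 37 were higher in knock-in libraries and none was lower, against 2.54% and 1.96% of all tested genes. The count of 27 was 13 without the library labelled knock-in replicate 3, 15 without wild-type replicate 1 and 9 without both. Shares of all tested genes were computed for the main test only, not for fits without these libraries. In these bulk samples, more cells of a type and more RNA per cell cannot be told apart, and genes of 1 cell type move together, so these counts are not counts of independent events. The set was also chosen with earlier results of these data known. Its contrasts with all tested genes are therefore descriptions and not tests.

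**Figure D1:**
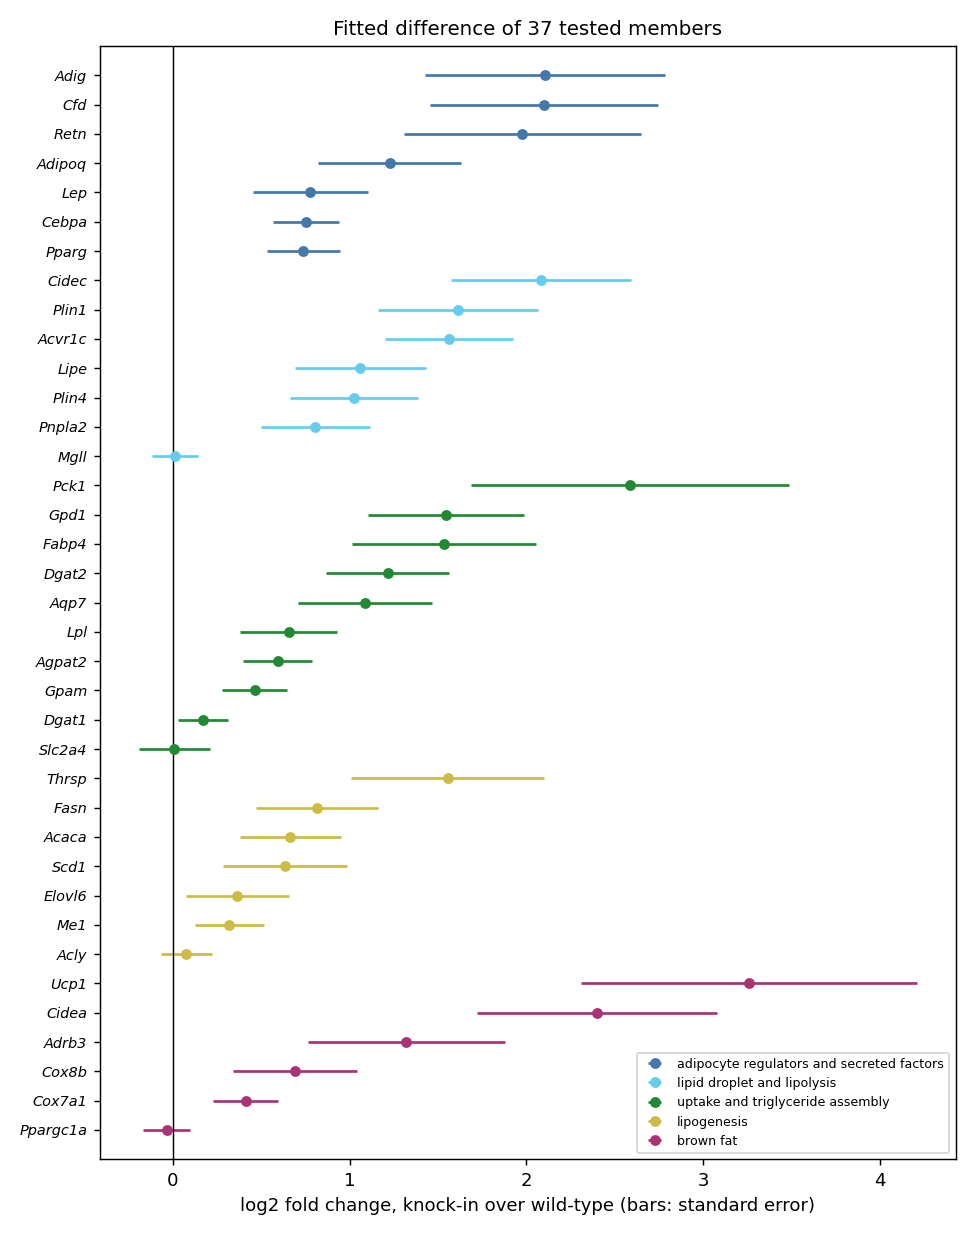
Fitted log2 fold change, knock-in over wild-type (horizontal axis), of the 37 tested genes (vertical axis), coloured by class, with bars for the standard error. Ppargc1a at -0.04 is the single point below 0, and Ucp1 at 3.26 lies farthest to the right with a wide bar.

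The excess was unevenly spread over the knock-in libraries. Among the 37 tested genes, 35 had their highest value in the library labelled knock-in replicate 3, against 22.9% of all tested genes, and 26 had their lowest value in wild-type replicate 1, against 18.7%. Of the tested genes, 31, 9 and 35 were above all wild-type libraries in knock-in replicates 1, 2 and 3. Over all tested genes these shares were 21.8%, 25.3% and 29.6%. Knock-in replicate 2 was therefore no more often above the wild-type range for these genes than for genes at large by this count. In it, 5 of the 37 (Mgll, Slc2a4, Acly, Me1 and Cox8b) were below that range. The share of all genes below the range in that library was not computed, so this count stands without a comparison. The 38 genes together took 0.287%, 0.193% and 0.568% of the gene counts in knock-in libraries, against 0.169%, 0.232% and 0.199% in wild-type libraries. The ratio of the highest to the lowest library within a group had a median of 3.04 in the knock-in group and 1.51 in the wild-type group, and was wider in the knock-in group for 33 of the 37 genes with a count in every wild-type library. Over the 20711 tested genes with a count in every library, these medians were 1.27 in the knock-in group and 1.26 in the wild-type group, and the range was wider in the knock-in group for 52.3%.

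**Figure D2:**
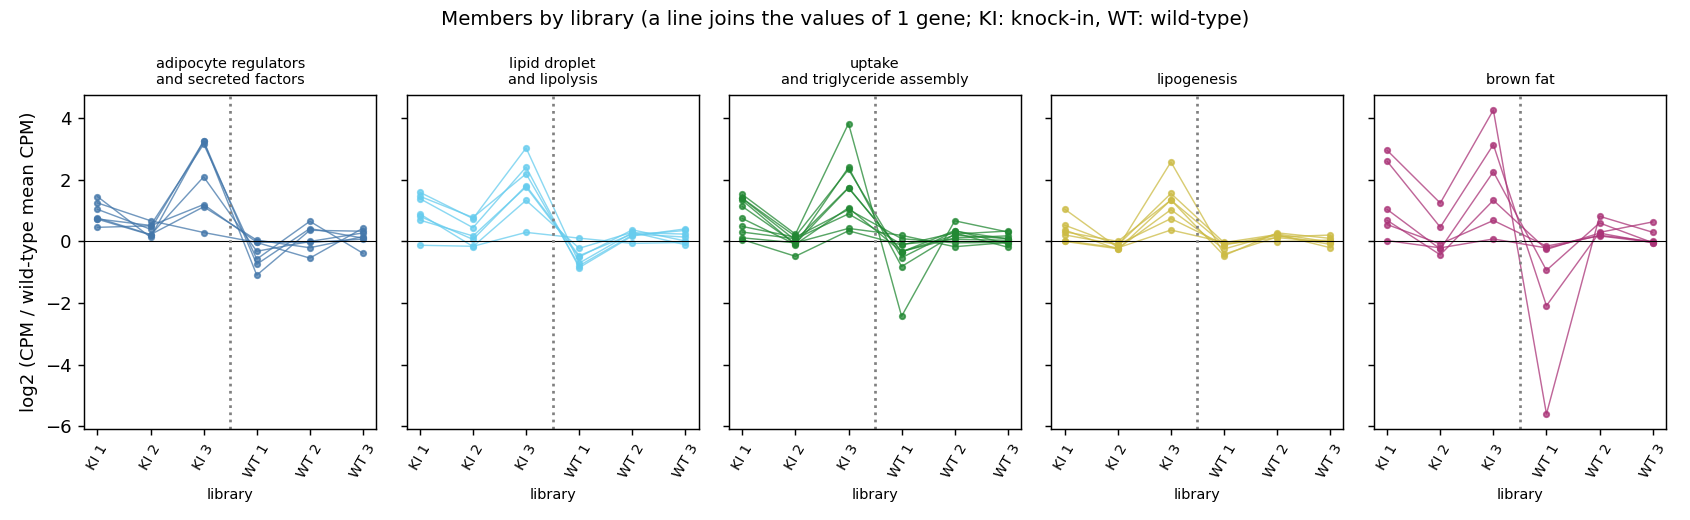
The log2 ratio of CPM to the wild-type mean (vertical axis) in each library (horizontal axis) for the tested genes, in 1 panel per class, where a line joins the values of 1 gene and the dotted line parts the groups. Knock-in replicate 3 is highest for 35 of 37 genes, and knock-in replicate 2 lies close to the wild-type libraries.

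For 8 of the 37 genes all knock-in libraries were above all wild-type libraries, which held for 4.71% of all tested genes. These were Pparg, Cebpa, Plin1, Cidec, Acvr1c, Gpam, Agpat2 and Ucp1. No gene of the set had all knock-in libraries below all wild-type libraries, which held for 4.01% of all tested genes. Without the library labelled knock-in replicate 3, 32 of the 37 log2 fold changes were positive and their median was 0.48. With wild-type replicate 1 left out as well, 31 were positive and the median was 0.35.

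The regulators and secreted factors of adipocytes numbered 7. All 7 had a positive log2 fold change and an unadjusted p under 0.05 in edgeR's test, where 2.54% of all tested genes had both. The median log2 fold change was 1.23, or 0.62 without the library labelled knock-in replicate 3. For this and the other classes, counts at that p were not made without that library. Pparg, the nuclear receptor that drives adipocyte differentiation, was at 20.8, 14.3 and 26.7 CPM in knock-in libraries and at 12.6, 10.6 and 13.6 CPM in wild-type libraries. Cebpa, its partner transcription factor, was at 33.4, 34.5 and 55.7 CPM in knock-in libraries, against 23.9, 23.8 and 25.6 CPM in wild-type libraries. The groups did not overlap for either factor, and the log2 fold changes were 0.74 (SE 0.207) for Pparg and 0.75 (SE 0.185) for Cebpa. For Pparg the margin was small, with 14.3 CPM in knock-in replicate 2 against 13.6 CPM in wild-type replicate 3. For Cebpa the wild-type libraries lay close together, and the log2 fold change was 0.47 without the library labelled knock-in replicate 3. In the authors' deposited table Cebpa had a log2 fold change of 0.75 and an adjusted p of 0.0494. It was the only gene of the set under 0.05 there, where 34 of 18762 features with an adjusted p were (0.181%). Elovl3 had no adjusted p in that table.

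Adipoq, which encodes the adipocyte hormone adiponectin, was at 57.0, 39.99 and 148 CPM in knock-in libraries and at 27.7, 34.5 and 41.8 CPM in wild-type libraries. Its log2 fold change was 1.23 (SE 0.405), or 0.48 without the library labelled knock-in replicate 3, and knock-in replicate 2 lay within the wild-type range. Cfd encodes adipsin, a serine protease of the complement system that fat secretes. Its level was 114, 73.0 and 531 CPM in knock-in libraries, against 33.2, 74.2 and 59.8 CPM in wild-type libraries, and the log2 fold change was 2.10 (SE 0.645), or 0.74 without the library labelled knock-in replicate 3. Adig, encoding the small adipocyte protein adipogenin, was at 6.82, 2.73 and 23.7 CPM in knock-in libraries and at 1.17, 3.20 and 3.13 CPM in wild-type libraries. For both genes knock-in replicate 3 was far above the other libraries and knock-in replicate 2 was inside the wild-type range. Retn, encoding the hormone resistin, averaged 11.7 ± 12.5 CPM in knock-in libraries and 2.94 ± 1.45 CPM in wild-type libraries (SD, n = 3 each), with a log2 fold change of 1.98 (SE 0.669) and the same library highest. Without the library labelled knock-in replicate 3, the log2 fold change of Retn was 0.62, and that of Adig was 0.91, against 2.11 (SE 0.678) with it.

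Leptin, the satiety hormone of fat, was an exception in which library stood highest. Lep was at 2.45, 1.64 and 1.26 CPM in knock-in libraries, against 1.01, 0.707 and 1.39 CPM in wild-type libraries. The highest value was in knock-in replicate 1, and knock-in replicate 3 was below wild-type replicate 3. Its log2 fold change was 0.78 (SE 0.325), and 0.96 without the library labelled knock-in replicate 3.

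**Figure D3:**
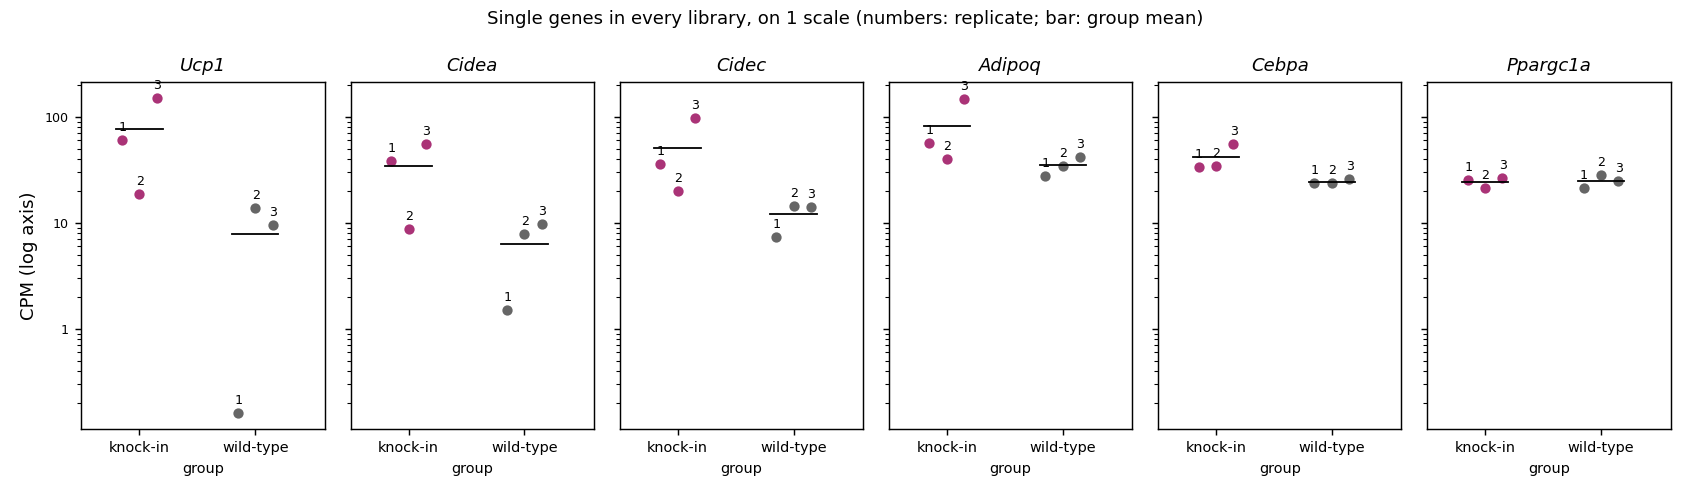
CPM of Ucp1, Cidea, Cidec, Adipoq, Cebpa and Ppargc1a (vertical log axis shared by the panels) in knock-in and wild-type libraries, with the replicate number above each point and a bar at the group mean. Ucp1 spans 0.161 to 149.7 CPM over the 6 libraries, whereas Ppargc1a stays between 21.3 and 28.4 CPM in both groups.

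The lipid droplet and lipolysis genes also numbered 7. All had a positive log2 fold change, 6 with an unadjusted p under 0.05 in edgeR's test, against 2.54% of all tested genes. The median was 1.06, or 0.48 without the library labelled knock-in replicate 3. The promoters of Plin1 and Cidec are shown because both genes coat or enlarge the droplet and both had groups that did not overlap. They are RefSeq sequences on GRCm38.p6, given 5′ to 3′ on the gene's own strand, from 250 bases before the transcript start to 50 after it. The Plin1 window is chr7:79732727-79733026 on the reverse strand, and the Cidec window is chr6:113434715-113435014 on the reverse strand. Capitals mark matches, on either strand, to AGGTCA (the core of PPAR elements), TTGCNNAA (a C/EBP-type motif) or TATAAA.
Plin1: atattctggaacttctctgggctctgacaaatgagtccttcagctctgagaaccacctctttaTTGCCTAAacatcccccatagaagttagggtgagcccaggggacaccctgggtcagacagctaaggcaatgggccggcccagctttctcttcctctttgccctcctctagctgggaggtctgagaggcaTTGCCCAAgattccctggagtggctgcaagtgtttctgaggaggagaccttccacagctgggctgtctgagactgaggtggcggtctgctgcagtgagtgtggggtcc
Cidec: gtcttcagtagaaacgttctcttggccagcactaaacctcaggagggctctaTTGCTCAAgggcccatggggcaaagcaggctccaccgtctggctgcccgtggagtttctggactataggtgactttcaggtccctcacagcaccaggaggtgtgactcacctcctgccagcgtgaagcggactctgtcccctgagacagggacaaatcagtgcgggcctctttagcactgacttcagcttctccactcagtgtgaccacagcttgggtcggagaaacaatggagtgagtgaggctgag
Both windows hold TTGCNNAA, which Plin1 has at 187 and 58 bases before the start and Cidec at 198 bases before it. A second RefSeq window of Cidec, chr6:113435711-113436010, holds none of the motifs marked by capitals. In GENCODE M21, Plin1 (ENSMUSG00000030546) spans chr7:79720218-79732903 and Cidec (ENSMUSG00000030278) spans chr6:113424634-113435760 of GRCm38, both on the reverse strand. The Cidec window shown thus lies inside that span, and the second window is the one at its 5′ end.

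Windows were present for 28 of the 38 genes, 37 windows in all, and 10 genes had none in the table. TTGCNNAA was in 13.5% of the 37 windows and in 10.8% of all 32851 RefSeq windows of that length. AGGTCA was in 24.3% against 16.3%, and AGGTCA in tandem copies 1 base apart, the arrangement known as DR1, was in none of the 37 against 0.0396%. The E-box CACGTG was in 5.41% against 7.15%, TATAAA in 8.11% against 13.6%, and the GC box GGGCGG in 35.1% against 35.7%. Both strands were searched, and TTGCNNAA read on the opposite strand is TTNNGCAA. These matches describe letters in short windows and are not binding sites.

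Plin1, the perilipin that coats the adipocyte droplet, was at 35.1, 18.3 and 71.2 CPM in knock-in libraries and at 7.44, 15.1 and 17.8 CPM in wild-type libraries. Cidec, whose protein enlarges droplets by fusing them, was at 36.0, 19.9 and 97.4 CPM in knock-in libraries, against 7.32, 14.5 and 14.04 CPM in wild-type libraries. Acvr1c, encoding the activin receptor ALK7, which restrains lipolysis in fat, was at 12.3, 7.61 and 20.3 CPM in knock-in libraries and at 2.57, 5.11 and 5.69 CPM in wild-type libraries. In these 3 genes every knock-in library was above every wild-type library, and wild-type replicate 1 was lowest. For Plin1 the margin was small, with 18.3 CPM in knock-in replicate 2 against 17.8 CPM in wild-type replicate 3. The log2 fold changes were 1.61 (SE 0.452) for Plin1, 2.08 (SE 0.507) for Cidec and 1.56 (SE 0.365) for Acvr1c. Without the library labelled knock-in replicate 3 these were 0.97 for Plin1, 1.21 for Cidec and 1.14 for Acvr1c. Cidec was at 0.97 with wild-type replicate 1 left out as well.

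The other droplet genes overlapped between groups. Plin4, another perilipin, averaged 96.8 ± 56.5 CPM in knock-in libraries and 47.5 ± 14.03 CPM in wild-type libraries (SD, n = 3 each), with a log2 fold change of 1.03. Lipe, hormone-sensitive lipase, averaged 42.5 ± 25.6 CPM in knock-in libraries and 20.3 ± 4.94 CPM in wild-type libraries, with a log2 fold change of 1.06. Pnpla2, the lipase that starts triglyceride breakdown, averaged 78.6 ± 36.6 CPM in knock-in libraries and 44.9 ± 8.82 CPM in wild-type libraries, with a log2 fold change of 0.81. Mgll, which cleaves the last fatty acid from monoglyceride and is used in many tissues, stood apart with 81.9, 80.02 and 109 CPM in knock-in libraries and 96.1, 85.4 and 87.4 CPM in wild-type libraries. Knock-in replicates 1 and 2 were below all wild-type libraries for Mgll, and its log2 fold change was 0.01 (SE 0.131).

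Genes of fatty acid uptake and triglyceride assembly numbered 10. All had a positive log2 fold change, 8 with an unadjusted p under 0.05 in edgeR's test, against 2.54% of all tested genes. The median was 0.87, or 0.51 without the library labelled knock-in replicate 3. Gpd1, which makes the glycerol phosphate backbone, was at 81.7, 34.7 and 157 CPM in knock-in libraries and at 21.5, 39.0 and 32.8 CPM in wild-type libraries. Dgat2, which catalyses the last step of triglyceride synthesis, was at 83.9, 32.8 and 107 CPM in knock-in libraries, against 25.4, 34.5 and 36.2 CPM in wild-type libraries. In both genes knock-in replicates 1 and 3 were above all wild-type libraries while knock-in replicate 2 was within their range. The log2 fold change was 1.54 (SE 0.442) for Gpd1 and 1.22 (SE 0.347) for Dgat2. Without knock-in replicate 2, Dgat2 had a log2 fold change of 1.57 and an adjusted p of 0.0285 in edgeR's quasi-likelihood test. Without the library labelled knock-in replicate 3 it had a log2 fold change of 0.86 and an adjusted p of 0.999 in that test, and over all alternatives its adjusted p lay between 0.0224 and 0.9999. For Gpd1 the log2 fold change was 0.90 without the library labelled knock-in replicate 3.

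Pck1, whose enzyme feeds glyceride synthesis in fat, had the largest log2 fold change among the 24 storage genes, 2.59 (SE 0.902). Its mean was 143 ± 167 CPM in knock-in libraries and 23.7 ± 17.2 CPM in wild-type libraries, where knock-in replicate 3 had 334 CPM and wild-type replicate 1 had 4.38 CPM. Without these 2 libraries its log2 fold change was 0.52. Fabp4, the fatty acid binding protein of adipocytes, averaged 225 ± 170.4 CPM in knock-in libraries and 77.6 ± 29.3 CPM in wild-type libraries, a log2 fold change of 1.53, or 0.77 without the library labelled knock-in replicate 3. Lpl, the lipase that frees fatty acids from circulating lipoproteins, averaged 183 ± 69.8 CPM in knock-in libraries and 116 ± 28.7 CPM in wild-type libraries, a log2 fold change of 0.66. Aqp7, a glycerol channel, averaged 6.33 ± 3.48 CPM in knock-in libraries and 2.94 ± 0.542 CPM in wild-type libraries, a log2 fold change of 1.09. These 3 genes overlapped between groups.

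Of the other acyltransferases of glycerolipid synthesis, Gpam, Agpat2 and Dgat1 had log2 fold changes below the class median. Gpam, the first acyltransferase of the pathway, was at 61.0, 52.5 and 91.8 CPM in knock-in libraries and at 46.4, 51.8 and 50.8 CPM in wild-type libraries. Agpat2, the next acyltransferase, was at 42.7, 33.5 and 62.6 CPM in knock-in libraries, against 32.4, 29.5 and 29.9 CPM in wild-type libraries. Neither gene overlapped between groups, with log2 fold changes of 0.46 (SE 0.182) for Gpam and 0.59 (SE 0.195) for Agpat2, but the lowest knock-in library was close to the highest wild-type library in each. Dgat1, the other enzyme of the last step, averaged 52.0 ± 8.72 CPM in knock-in libraries and 46.2 ± 6.04 CPM in wild-type libraries, a log2 fold change of 0.17 (SE 0.141). Slc2a4, the insulin-regulated glucose transporter GLUT4 of fat and muscle, averaged 39.2 ± 10.8 CPM in knock-in libraries and 39.0 ± 6.99 CPM in wild-type libraries, a log2 fold change of 0.01 (SE 0.201).

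The 7 lipogenesis genes, which build fatty acids from acetyl units, had smaller differences. All 7 log2 fold changes were positive, 3 with an unadjusted p under 0.05 in edgeR's test, against 2.54% of all tested genes. The median was 0.63. No gene of this class had groups without overlap. Without the library labelled knock-in replicate 3 the median was 0.08 and 5 of 7 were positive. Thrsp, encoding Spot 14, a protein that promotes lipogenesis, was at 31.5, 13.3 and 91.2 CPM in knock-in libraries and at 11.5, 16.9 and 17.6 CPM in wild-type libraries. Fasn, fatty acid synthase, was at 393, 252 and 802 CPM in knock-in libraries, against 266, 319 and 237 CPM in wild-type libraries. Acaca, the acetyl-CoA carboxylase that commits acetyl units to the pathway, was at 110.0, 88.7 and 224 CPM in knock-in libraries and at 82.6, 96.4 and 87.8 CPM in wild-type libraries. In all 3 genes knock-in replicate 2 was within the wild-type range and knock-in replicates 1 and 3 were above it. Their log2 fold changes were 1.55 (SE 0.547) for Thrsp, 0.82 (SE 0.344) for Fasn and 0.66 (SE 0.286) for Acaca. They were 0.54 for Thrsp, 0.23 for Fasn and 0.16 for Acaca without the library labelled knock-in replicate 3.

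Scd1, the desaturase that makes monounsaturated fatty acids, averaged 671 ± 380.3 CPM in knock-in libraries and 433 ± 108 CPM in wild-type libraries (SD, n = 3 each). Its log2 fold change was 0.63 (SE 0.351). The elongase Elovl6 averaged 32.9 ± 16.5 CPM in knock-in libraries and 25.4 ± 4.32 CPM in wild-type libraries. Malic enzyme Me1, which supplies NADPH, averaged 37.9 ± 11.5 CPM in knock-in libraries and 30.3 ± 3.62 CPM in wild-type libraries. Acly, which makes cytosolic acetyl-CoA from citrate, averaged 202 ± 41.2 CPM in knock-in libraries and 191 ± 4.73 CPM in wild-type libraries. Their log2 fold changes were 0.36 for Elovl6, 0.32 for Me1 and 0.08 for Acly. None of these 3, nor Scd1, had an unadjusted p under 0.05 in edgeR's test.

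The brown fat genes held the widest range of differences in the set. Of the 7, 6 were tested, and 5 of the 6 had a positive log2 fold change. At an unadjusted p under 0.05 in edgeR's test, 3 were higher in knock-in libraries, against 2.54% of all tested genes. The median was 1.01, or 0.39 without the library labelled knock-in replicate 3. The promoter of Ucp1 is shown because Ucp1, the uncoupling protein that defines brown and beige fat, had the largest log2 fold change of the tested genes. Its RefSeq window on GRCm38.p6 is chr8:83290098-83290397 on the forward strand, with AGGTCA in capitals 14 bases before the start. The gene (ENSMUSG00000031710) spans chr8:83290352-83298452 of GRCm38 in GENCODE M21.
Ucp1: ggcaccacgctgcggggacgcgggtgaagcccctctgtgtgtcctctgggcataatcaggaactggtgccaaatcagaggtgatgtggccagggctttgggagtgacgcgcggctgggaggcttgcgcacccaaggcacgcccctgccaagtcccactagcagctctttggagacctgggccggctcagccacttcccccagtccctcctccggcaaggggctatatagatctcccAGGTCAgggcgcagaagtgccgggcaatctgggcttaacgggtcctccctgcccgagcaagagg
Ucp1 was at 60.4, 18.5 and 149.7 CPM in knock-in libraries and at 0.161, 13.7 and 9.58 CPM in wild-type libraries. These levels rest on 2002, 541 and 3454 counts in knock-in libraries, against 4, 408 and 401 counts in wild-type libraries. All knock-in libraries were above all wild-type libraries, and wild-type replicate 1 was almost without the transcript. The log2 fold change was 3.26 (SE 0.951). It was 2.30 without the library labelled knock-in replicate 3, 2.71 without wild-type replicate 1 and 1.77 without both.

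Cidea, a droplet protein of brown fat, was at 38.3, 8.70 and 55.7 CPM in knock-in libraries and at 1.49, 7.74 and 9.79 CPM in wild-type libraries. Knock-in replicate 2 was inside the wild-type range, and wild-type replicate 1 was again lowest. The log2 fold change was 2.40 (SE 0.680), and 1.42 without the library labelled knock-in replicate 3 and wild-type replicate 1. Adrb3, the adrenergic receptor through which cold signals reach fat cells in mice, was at 4.74, 1.95 and 11.1 CPM in knock-in libraries, against 1.21, 3.50 and 2.25 CPM in wild-type libraries, a log2 fold change of 1.32 (SE 0.557). It was 0.52 without the library labelled knock-in replicate 3 and 0.24 without both that library and wild-type replicate 1. Elovl3, a fatty acid elongase induced by cold in brown fat, had 12, 3 and 44 counts in knock-in libraries and 0, 4 and 3 in wild-type libraries. These were too few for the filter of the main test. In the authors' deposited table Elovl3 had a log2 fold change of 3.46 (SE 0.989) and no adjusted p. Knock-in replicates 1 and 3 were above all wild-type libraries for Adrb3 and Elovl3.

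Cox7a1, Cox8b and Ppargc1a, which muscle also uses, had log2 fold changes below the class median. Cox7a1, a subunit of cytochrome c oxidase in heart, muscle and brown fat, was at 36.8, 23.8 and 40.4 CPM in knock-in libraries and at 22.7, 28.5 and 24.7 CPM in wild-type libraries, a log2 fold change of 0.41 (SE 0.185). Cox8b, another subunit with that distribution, averaged 51.4 ± 28.2 CPM in knock-in libraries and 31.8 ± 5.93 CPM in wild-type libraries, a log2 fold change of 0.69 (SE 0.349). Ppargc1a, the coactivator of mitochondrial biogenesis, was the only tested gene of the set with a negative log2 fold change, -0.04 (SE 0.133). It averaged 24.2 ± 2.51 CPM in knock-in libraries and 24.8 ± 3.53 CPM in wild-type libraries. All 3 genes overlapped between groups.

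Within the set, levels were compared between genes only per kilobase of annotated exon. In knock-in libraries the order began with Cfd at 260 CPM per kb (259.58), Cox8b at 143 CPM per kb and Scd1 at 137 CPM per kb. In wild-type libraries it began with Scd1 at 88.4 CPM per kb, Cox8b at 88.2 CPM per kb and Cfd at 60.5 CPM per kb. Ucp1 was number 7 in the knock-in order, at 46.6 CPM per kb, and number 26 in the wild-type order, at 4.78 CPM per kb. Pck1 was number 9 in knock-in libraries, at 41.8 CPM per kb, and number 22 in wild-type libraries, at 6.90 CPM per kb. The lowest genes were Aqp7, Adrb3, Acvr1c, Lep and Elovl3 in both groups, in the same order. The knock-in order changed when the library labelled knock-in replicate 3 was left out. It then began with Cox8b at 103 CPM per kb, Cfd at 102 CPM per kb and Scd1 at 93.8 CPM per kb, with Ucp1 number 9 at 24.1 CPM per kb and Pck1 number 19 at 13.9 CPM per kb. Close places in these orders do not differ beyond the spread between libraries.

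Each gene was also set against Adipoq within the same library, which asks whether the genes kept their proportions to an adipocyte transcript. Of 37 genes, 28 had ratios to Adipoq that overlapped between groups. In 3, Plin1, Cidec and Ucp1, the ratio was higher in all knock-in libraries than in all wild-type libraries, where 0.0772% of all tested genes had such a ratio. For Ucp1 the ratio was 1.06, 0.462 and 1.01 in knock-in libraries, against 0.00581, 0.398 and 0.229 in wild-type libraries. For Cidec it was 0.631, 0.497 and 0.660 in knock-in libraries, against 0.264, 0.420 and 0.336 in wild-type libraries. In 6 (Mgll, Slc2a4, Acly, Scd1, Elovl6 and Ppargc1a), the ratio was lower in all knock-in libraries, where 32.8% of all tested genes had such a ratio. For Mgll it was 1.44, 2.00 and 0.741 in knock-in libraries, against 3.47, 2.47 and 2.09 in wild-type libraries. These ratios share 1 denominator that itself differed between libraries, and with 3 libraries against 3 an exact two-sided permutation test cannot go below p = 0.1.

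**Figure D4:**
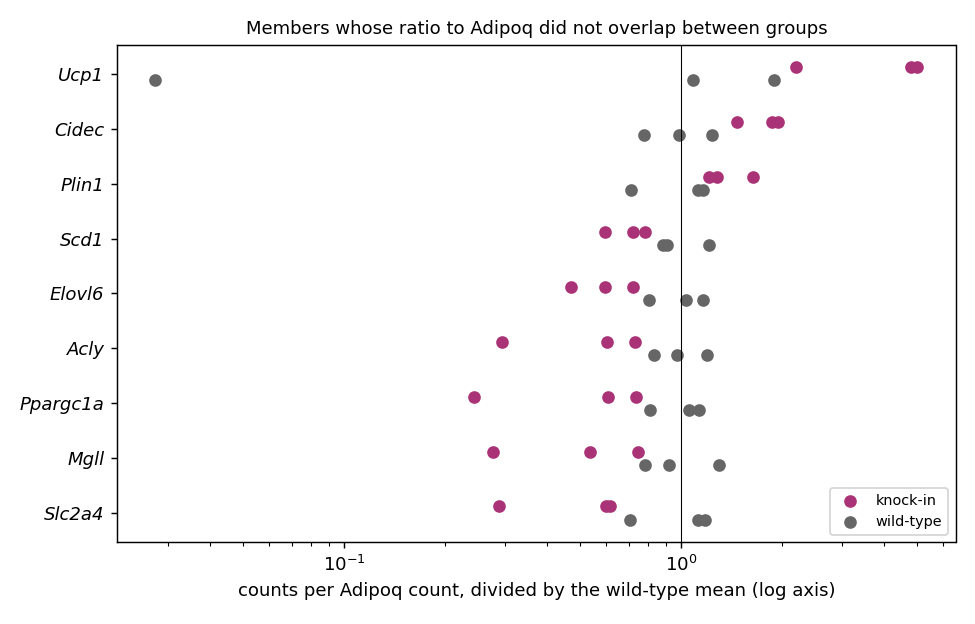
Counts per Adipoq count in the same library, divided by the wild-type mean of that ratio (horizontal log axis), with 1 point per library. Only genes whose ratio did not overlap between groups are drawn (vertical axis), with knock-in points placed above wild-type points. Before that division, the knock-in ratios of Ucp1, from 0.462 to 1.06, are above the wild-type ratios, whereas those of Mgll, from 0.741 to 2.00, are below them.

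Further genes of the same pathways were examined as 5 lists, each with a median log2 fold change below that of the set. None of the tested genes in these lists passed an adjusted p of 0.05 in edgeR's test. Among 12 other adipocyte genes, 6 had a positive log2 fold change and the median was 0.09. In 2 of the 12, all knock-in libraries were above all wild-type libraries, against 4.71% of all tested genes. Lgals12, a lectin of adipocyte droplets, was at 5.61, 3.04 and 10.5 CPM in knock-in libraries and at 1.49, 3.03 and 2.39 CPM in wild-type libraries, a log2 fold change of 1.45. Pde3b, the phosphodiesterase through which insulin restrains lipolysis, had a log2 fold change of 0.77, and Aoc3, an amine oxidase of the adipocyte surface, of 0.70. Among 25 other droplet and uptake genes, 20 were positive with a median of 0.13. The smallest p-values there belonged to Plin5, a perilipin of oxidative tissue (0.91), the fatty acid receptor Cd36 (0.65) and the acyl-CoA synthetase Acsl1 (0.53), with their log2 fold changes in parentheses.

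Among 13 other lipogenesis genes, 8 had a positive log2 fold change and the median was 0.06. Acacb, the carboxylase of the mitochondrial surface, had a log2 fold change of 0.60. Scd2, a desaturase of brain and other tissues, averaged 403 ± 19.1 CPM in knock-in libraries and 487 ± 34.9 CPM in wild-type libraries, and Fads2, a desaturase of polyunsaturated fatty acids, averaged 20.4 ± 2.55 CPM in knock-in libraries and 25.3 ± 2.36 CPM in wild-type libraries. In 3 of the 13 genes, these 2 desaturases among them, all knock-in libraries were below all wild-type libraries, against 4.01% of all tested genes. The log2 fold changes were -0.27 for Scd2 and -0.31 for Fads2. Among 17 tested of 18 other brown fat genes, 14 were positive and the median was 0.32. In 4 of the 17, all knock-in libraries were above all wild-type libraries, against 4.71% of all tested genes. Lncbate1, a long noncoding RNA of brown fat, was at 0.573, 0.375 and 1.08 CPM in knock-in libraries, against 0.121, 0.168 and 0.119 CPM in wild-type libraries. Its log2 fold change was 2.25, with an adjusted p of 0.813 in edgeR's quasi-likelihood test. The fatty acid transporter Slc27a2 had a log2 fold change of 1.22, and Letmd1, a mitochondrial protein of brown fat, of 0.52.

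Genes of adipocyte precursors did not share the direction. Of 8, 3 had a positive log2 fold change and the median was -0.03. Dlk1, a surface protein that restrains adipocyte differentiation, averaged 0.687 ± 0.308 CPM in knock-in libraries and 2.51 ± 2.00 CPM in wild-type libraries, a log2 fold change of -1.88, and its groups overlapped. Pi16 (-0.08) and the transcription factor Ebf1 (-0.06) had log2 fold changes close to 0.

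Markers of other tissues that a dissected cochlea can carry were summed in the same libraries. The 24 lipid storage genes summed to 1422, 848 and 2983 CPM in knock-in libraries and to 658, 934 and 852 CPM in wild-type libraries. Skeletal muscle markers (14 of 14 detected) summed to 13512, 9236 and 6610 CPM in knock-in libraries, against 8823, 13828 and 8944 CPM in wild-type libraries. Ttn and Myh4 had the highest CPM among them, which is not scaled for gene length. Per kilobase of exon, Ttn averaged 47.2 CPM in knock-in and 44.1 CPM in wild-type libraries, below Acta1 at 484 and 574 CPM. The muscle sum was lowest in knock-in replicate 3, where storage genes were highest. Of the 14 muscle markers, 7 were lowest in knock-in replicate 3 and 5 in knock-in replicate 2, while Myh7 and Tnnt1 were highest in knock-in replicate 3. Salivary gland markers (10 of 10 detected, with Bpifa2 and Amy1 highest in mean CPM) summed to 35.6, 87.5 and 225 CPM in knock-in libraries. In wild-type libraries they summed to 18.4, 22.2 and 20.97 CPM. All knock-in libraries were above all wild-type libraries for this sum, and both the salivary and the storage sum were highest in the library labelled knock-in replicate 3. Knock-in replicate 2 had a salivary sum above knock-in replicate 1 and a storage sum below it. Of the salivary markers, 5 were tested and 4 had a positive log2 fold change, while Aqp5 was at -0.23. Car6, a secreted carbonic anhydrase, had an adjusted p of 0.0205 in edgeR's test. Among untested markers, Smr3a and Dcpp1 had all knock-in libraries above all wild-type libraries, and Muc19, Prol1 and Dcpp3 overlapped. Muc19 was at 4.35 CPM in wild-type replicate 3 and at 0.151, 0.341 and 0.260 CPM in knock-in libraries.

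Cartilage markers (15 of 15 detected) summed to 798, 1179 and 1051 CPM in knock-in libraries, against 708, 958 and 692 CPM in wild-type libraries. Of these, 13 had a positive log2 fold change and 6 had one of 1 or more, the median was 0.40, and none passed an adjusted p of 0.05 in edgeR's test. Col2a1 had a log2 fold change of 1.09, Col11a2 of -0.07 and Col9a2 of -0.08. Those of Comp, Chad, Cnmd, Ucma and Sox9 lay between 0.11 and 0.20. Col10a1, a collagen of hypertrophic cartilage chosen here after its values were seen, was at 9.96, 83.6 and 50.4 CPM in knock-in libraries and at 4.14, 3.33 and 3.54 CPM in wild-type libraries, a log2 fold change of 3.71. Matn3, a cartilage matrix protein chosen likewise, had a log2 fold change of 3.81. Both were highest in knock-in replicate 2, where the storage sum was within the wild-type range. Sebaceous gland markers (4 of 4 detected) summed to 2.23, 1.95 and 2.21 CPM in knock-in libraries and to 1.85, 2.02 and 1.70 CPM in wild-type libraries, which overlapped. No marker of these lists was at 0 in every library. The part of these tissues in the values of the fat genes was not tested. With Xist abundance as a covariate, the median log2 fold change of the 37 fat genes was 0.78 and 34 were positive. In edgeR's test with that covariate, 30 had an unadjusted p under 0.05 with higher values in knock-in libraries. The share of all genes in that fit was not computed.

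**Figure D5:**
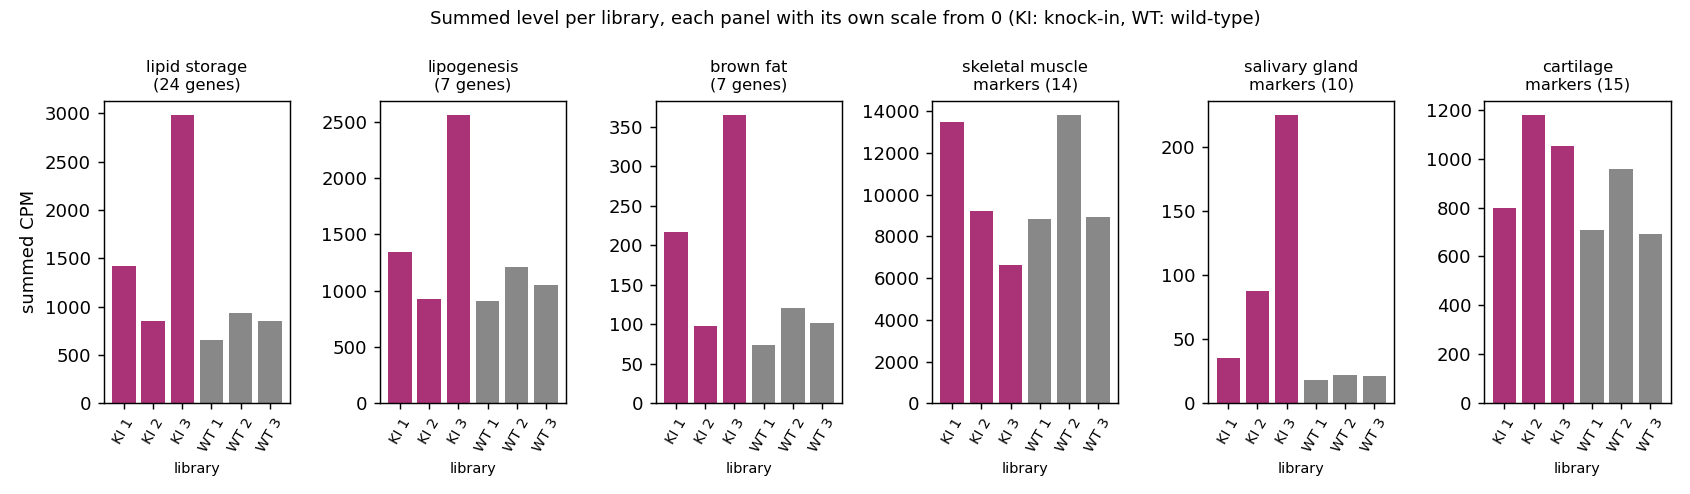
Summed CPM (vertical axes, each from 0 on its own scale) in each library for lipid storage, lipogenesis and brown fat genes and for markers of skeletal muscle, salivary gland and cartilage. The storage sum is 2983 CPM in knock-in replicate 3 and between 658 and 1422 CPM in the other 5 libraries, and the salivary sum is also highest in that library.

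The summed level of lipid storage genes was 2.15 times higher in the knock-in mean than in the wild-type mean, and 1.39 times without the library labelled knock-in replicate 3. For lipogenesis genes, with 1346, 928 and 2561 CPM in knock-in libraries and 910.0, 1209 and 1054 CPM in wild-type libraries, these ratios were 1.52 and 1.08. For brown fat genes, with 217, 97.8 and 365 CPM in knock-in libraries and 73.3, 120.2 and 102 CPM in wild-type libraries, they were 2.30 and 1.598. In all 3 sums the groups overlapped, with knock-in replicate 2 inside the wild-type range. Of the classes, only the regulators and secreted factors had a sum that was higher in all knock-in libraries (240, 170.4 and 812 CPM) than in all wild-type libraries (102, 152 and 148 CPM).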

How the data were processed

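RNA-seq of ribosome-depleted total RNA from cochleae of 3 knock-in and 3 wild-type mice was sequenced in paired reads of 93 bases, per the labels. Per the submitters' processing notes, the authors' alignment to GRCm38 used STAR 2.5.2 and their comparison used DESeq2. How reads were assigned to genes, and whether by strand, is not given in the sources used here. Genes on the opposite strand overlap exons of Lipe (918 bp), Adrb3 (839 bp) and Gpd1 (384 bp) the most. Shorter overlaps of that kind are in Cebpa, Plin4, Mgll, Acvr1c, Agpat2, Elovl6, Me1 and Elovl3. Reads of these opposite-strand genes may be included. The deposited counts per gene are whole numbers without normalization. Their deposited comparison table holds a mean signal per feature (counts over size factors), log2 fold changes, a test score and p-values.

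The 38 members and all lists were chosen with earlier results of these data known. Of 48733 rows, 48709 were mouse genes; the other 24, spike-in and transgene sequences with 0.0015% to 0.0045% of counts, were left out of library totals and of all tests. Symbols came from GENCODE M21 by identifier (48349 matched). The main test was edgeR 4.0.16, run in R 4.3.3 (filterByExpr by group, TMM, two-sided quasi-likelihood F test, group as only term, Benjamini-Hochberg over 20733 genes, threshold 0.05). The standard error is the absolute log2 fold change over the square root of F. The test was checked on simulated counts. Values in every library are given for the 5 storage, 3 lipogenesis and 4 brown fat genes with the smallest unadjusted p, for Adipoq, Pparg, Ucp1 and Lep, and for members called under any alternative; Mgll, Gpam and Agpat2 were added after their values were seen. Outside the set, up to 3 genes per pathway list with the smallest unadjusted p are named. The chi-square per degree of freedom between libraries was 20.95 or more, so none repeats another. Replicates are separate mice; their numbers follow accession order and pair nothing. Alternatives were other normalizations and filters, DESeq2 1.42.0, limma-voom (limma 3.58.1), the bias-adjusted fit, an Xist covariate, a threshold of 0.1 and each library left out.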

Additional observations from a re-analysis of the deposited data

Results flagged for a closer look

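The Neo sequence, which is outside the mouse genes tested, reached 2.06 CPM in knock-in replicate 1. Knock-in replicate 2 had 6.99 CPM. Both values are above the 0.207 to 0.276 CPM of the wild-type libraries. It was at 0.208 CPM in the library labelled knock-in replicate 3, the library in which 35 of the 37 tested fat genes had their highest value.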

How the results depend on the processing

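Of 555 values recomputed over 15 alternatives, 523 kept their direction and their side of the threshold. No member passed in the main test, so keeping the side meant not passing again. The count takes no account of size. The median log2 fold change of the tested members was 0.82 in the main fit and 0.48 without knock-in replicate 3. The count of genes called, 7, became 76 with no filter on low counts, 28 with DESeq2 and 11 with an Xist covariate, lay between 3 and 21 when single libraries were left out, and was 3 without both knock-in replicate 3 and wild-type replicate 1, an alternative added after the data were seen. The count of members called, 0, became 10 with no filter (Cebpa, Cfd, Adig, Plin1, Cidec, Acvr1c, Gpd1, Dgat2, Ucp1 and Cidea) and lay between 0 and 1 when single libraries were left out, with Dgat2 called without knock-in replicate 2. The smallest adjusted p of a member was 0.0924 with DESeq2 and 0.976 with limma-voom. At an unadjusted p under 0.05, 27 members were higher with edgeR, 23 with DESeq2 and 18 with limma-voom. The matching share of all genes was computed for the main edgeR test only. The causes were not tested. No paired analysis was possible because the replicate numbers were given in accession order.

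Direction changed in 6 members under at least 1 alternative. Slc2a4 was at -0.0047 with no filter, -0.021 with limma-voom, -0.0037 with the Xist covariate, between -0.19 and 0.20 when single libraries were left out, and at -0.25 without both libraries. Mgll was at -0.000287 with limma-voom, -0.0022 with the Xist covariate, between -0.15 and 0.093 when single libraries were left out, and at -0.094 without both libraries. With single libraries left out, Acly lay between -0.094 and 0.20, Elovl6 between -0.12 and 0.60, and Ppargc1a between -0.13 and 0.071. The negative values of Acly and Elovl6 came without knock-in replicate 3. Without both libraries Acly was at -0.11, Elovl6 at -0.23 and Scd1 at -0.10. Ppargc1a was at 0.047 without knock-in replicate 2.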
